A study of Mus musculus with 4 samples.

Results

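Lymphoid-primed progenitors were examined as the Dntt+ Il7r- cells of 4 single-cell RNA libraries of mouse bone marrow. Of 34320 kept cells, 3845 (11.2%) were members: 575 in control 1, 908 in control 2, 927 in Yoda1 1 and 1435 in Yoda1 2. A member carried 2 or more UMIs (unique molecular identifiers, which count captured transcripts) of Dntt and 0 UMIs of Il7r, Ebf1, Pax5, Siglech, Procr and Mecom. Barcodes counted as kept cells when they had 500 or more genes, 1000 or more UMIs and no more than 10% mitochondrial UMIs. The members were thus chosen on measured counts, and levels of the 7 genes that chose them are given as a description, with no test.

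Early lymphoid priming is a stage of blood formation at which multipotent progenitors begin to transcribe genes of the B and T lineages while still holding myeloid transcripts. Dntt encodes terminal deoxynucleotidyl transferase, which adds untemplated bases at the joints of rearranging antigen receptor genes, and is among the first lymphoid genes to be transcribed. Flt3, a receptor tyrosine kinase, and Satb1, a chromatin organiser, mark the progenitors from which these cells come, whereas Il7r, the interleukin 7 receptor chain, marks the common lymphoid progenitors that follow.

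The study sorted LSK cells (lineage-negative, Sca-1-positive, Kit-positive blood stem and progenitor cells) from the marrow of wild-type mice. The 2 control libraries came from vehicle mice and the 2 Yoda1 libraries from mice given Yoda1, a small-molecule opener of the mechanosensitive ion channel Piezo1, intraperitoneally for 2 weeks. The sources used here gave no dose, age or sex, and did not say whether the libraries of a group came from separate mice, so p-values between groups measure only the spread between these libraries. All values per library are given in the order control 1, control 2, Yoda1 1, Yoda1 2.

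The Dntt+ Il7r- cells had a median of 9266, 7421.5, 9350 and 7456 UMIs. They were compared within each library with 2 neighbouring populations. Dntt- Flt3+ cells (1196, 1085, 1266 and 1061 cells) had 0 Dntt UMIs, at least 1 Flt3 UMI and the same 6 genes at 0, and a median of 12347, 11275, 12304 and 6419 UMIs. Dntt+ Il7r+ cells (152, 303, 198 and 365 cells) met the members' rule except for at least 1 Il7r UMI, and had a median of 10653, 9153, 11541.5 and 10307 UMIs. Counts were summed per library and population and are given as CPM (counts scaled to a common total per sum). The library Yoda1 2 stood apart: over its kept cells the count of Klf1 and Car1 positive erythroid cells was 103, against 485 to 1119 in the others, and that of Elane-high cells was 206, against 1100 to 1445. From 8 to 26 cell barcodes were shared by each pair of libraries, of which 0 or 1 were members in both.

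The share of kept cells that were Dntt+ Il7r- did not separate the treatments. It was 7.55%, 11.6%, 10.2% and 14.7%, with 95% exact binomial intervals (counting error only) of 6.96 to 8.16%, 10.9 to 12.3%, 9.55 to 10.8% and 14.0 to 15.4%. Yoda1 1 lay between the 2 controls. The mean was 12.4% ± 3.21 (SD, n = 2) with Yoda1 and 9.58% ± 2.87 (SD, n = 2) in controls, a difference of 2.86 percentage points (exact two-sided permutation p = 0.667, where this design cannot go below 0.3333).

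**Figure D1:**
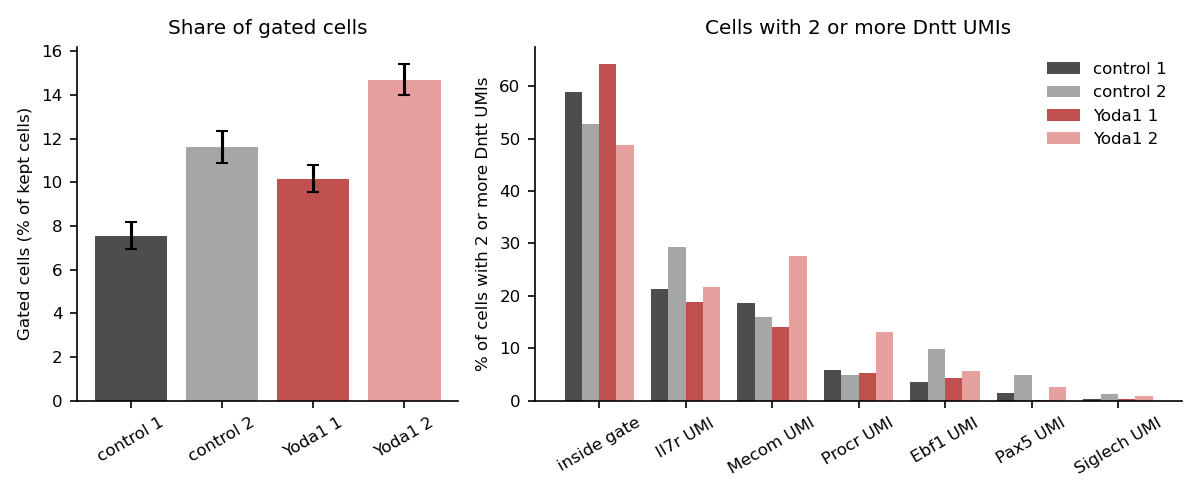
Left, Dntt+ Il7r- cells as a percentage of kept cells in each library, with 95% exact binomial intervals; Yoda1 1 at 10.2% lies between the controls at 7.55% and 11.6%. Right, for all cells with 2 or more Dntt UMIs, the percentage that met the whole rule and the percentages with a UMI of each of the 6 other genes, where Mecom reaches 27.6% in Yoda1 2.

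Cells with 2 or more Dntt UMIs were more numerous than the members, at 975, 1719, 1442 and 2939. Of these, 59.0%, 52.8%, 64.3% and 48.8% met the whole rule. An Il7r UMI was seen in 21.2%, 29.3%, 18.8% and 21.7% of them. Mecom, a stem cell transcription factor, had a UMI in 18.6%, 16.0%, 14.1% and 27.6%, and Procr, the stem cell surface protein EPCR, in 5.85%, 4.89%, 5.20% and 13.1%, so that both were most frequent in Yoda1 2.

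Dntt UMIs were also found in cells of other lineages. Among Klf1 and Car1 positive erythroid cells, 6.08%, 4.33%, 3.59% and 11.7% carried 2 or more Dntt UMIs, and among cells with 20 or more Elane UMIs, a neutrophil granule gene, 5.95%, 3.73%, 3.41% and 12.6% did, at median depths of 18162 to 21599 UMIs. Of the members, 6.43%, 0.991%, 1.62% and 0.279% also met the erythroid rule, and 8.17%, 2.53%, 3.02% and 0.906% the Elane rule. Both percentages were highest in control 1, and values without those cells are given below beside the lists of these lineages.

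The label was checked against its markers at 1 depth, after each cell was thinned to 3000 UMIs. Flt3 was seen in 47.5%, 54.4%, 38.9% and 57.2% of Dntt+ Il7r- cells, against 3.67%, 3.09%, 2.40% and 5.83% of erythroid cells. Satb1 was seen in 48.5%, 59.3%, 43.1% and 54.1%, against 4.20%, 3.92%, 2.10% and 10.7% of erythroid cells. The neighbouring populations carried these markers too. In thinned Dntt+ Il7r+ cells the means were 54.7% in controls and 48.4% with Yoda1 for Flt3, and 62.6% and 51.5% for Satb1. In thinned Dntt- Flt3+ cells they were 25.6% and 24.1% for Satb1. Before thinning the means in Dntt+ Il7r- cells were 84.4% in controls and 80.7% with Yoda1 for Flt3, and 84.7% and 80.5% for Satb1. Neither gene had a UMI in 30.7%, 21.0%, 36.9% and 22.1% of the thinned Dntt+ Il7r- cells. Cd34, a progenitor surface protein, was seen in 72.3%, 78.5%, 70.7% and 81.4%, Kit in 23.9%, 28.6%, 24.1% and 29.0%, and Ly6a, which encodes Sca-1, in 56.7%, 49.4%, 76.4% and 27.9%. Of the T cell receptor complex genes, Cd3e had a UMI in 0%, 0.110%, 0% and 0.0697% of the cells before thinning and in 0% after it, and Cd3g in 0%, 0.222%, 0.108% and 0.0714% after thinning.

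Lymphoid priming genes set the Dntt+ Il7r- cells apart from Dntt- Flt3+ cells. Of 17 lymphoid priming genes that passed the filter on low counts, out of 22 listed, 15 were higher in Dntt+ Il7r- cells and 0 lower (median log2 fold change 1.22, against -0.01 over all genes tested). Over all 13323 genes tested, 1339 (10.1%) were higher and 1513 (11.4%) lower by edgeR's quasi-likelihood test with library as a block and Benjamini-Hochberg adjusted p under 0.05. The count was again 15 of 17 when cells of the erythroid and Elane rules were left out of both populations, and also within cells of 5000 to 20000 UMIs. The list of T, NK and innate lymphoid genes went both ways, with 3 of 9 tested genes higher and 3 lower (median log2 fold change 0.05).

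Satb1 was at 190, 273, 183 and 239 CPM in Dntt+ Il7r- cells and at 81.5, 96.3, 77.2 and 116 CPM in Dntt- Flt3+ cells. The populations did not overlap, with a log2 fold change of 1.22 ± 0.07 (SE, adjusted p = 8.82e-07). Notch1, the receptor that directs T lineage fate, was at 89.4, 122, 83.1 and 118 CPM against 39.3, 42.0, 31.6 and 48.2 CPM. Every Dntt+ Il7r- value lay above every Dntt- Flt3+ value (1.32 ± 0.06, adjusted p = 2.54e-07). Il12a, the p35 chain of interleukin 12, was at 79.4, 140, 104 and 159 CPM against 21.5, 32.9, 28.4 and 44.4 CPM, again without overlap (1.89 ± 0.06, adjusted p = 1.26e-08). The lowest Il12a level in both populations was in control 1 and the highest in Yoda1 2. On GRCm38 with GENCODE M21 genes, Satb1 lies at chr17:51736187-51833290, Notch1 at chr2:26457903-26516663 and Il12a at chr3:68690644-68698547, and values cover the whole gene.

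Rag2, the partner of Rag1 in the recombinase that cuts antigen receptor genes, was at 7.11, 12.3, 8.70 and 7.80 CPM against 1.57, 2.42, 1.10 and 1.28 CPM (log2 fold change 2.47 ± 0.17, adjusted p = 5.58e-06). Rag1 reached 0.683 to 1.07 CPM and did not pass the filter on low counts. After thinning, Rag2 was seen in 2.09%, 3.78%, 2.81% and 2.21% of Dntt+ Il7r- cells and Rag1 in 0.175%, 0.334%, 0.324% and 0.286%, so transcripts of the recombinase were detected in few of these cells at this depth. Of 13 tested genes of V(D)J recombination and end joining, 6 were higher and 0 lower, among them Xrcc6 (0.60) and Xrcc5 (0.50), the Ku DNA end-binding pair, and Dclre1c (0.53), the hairpin-opening nuclease Artemis. Lig4, Prkdc, Nhej1, Xrcc4, Atm, Hmgb1 and Hmgb2 did not pass the test, with log2 fold changes from -0.33 to 0.29. The count of higher genes was 3 of 14 without Yoda1 1, 4 of 13 without control 2 and 3 of 13 with DESeq2.

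Receptors that guide lymphoid cells were among the higher genes. Ccr9, the chemokine receptor for thymus homing, was at 8.06, 16.1, 5.43 and 32.3 CPM against 1.34, 1.91, 0.116 and 5.23 CPM, higher within each library (2.94 ± 0.22, adjusted p = 8.46e-06). Ccr7, another homing receptor, was higher by a log2 fold change of 2.59. Blnk, an adaptor of B cell receptor signalling, was higher by 2.84, Ly6d, a surface marker of B-lineage priming, by 1.63, and the immunoglobulin heavy chain constant gene Ighm by 1.15. In each population 1 cell with over 1000 UMIs of the antibody light chain gene Igkc added to the Ighm sum, and without such cells the Ighm log2 fold change was 1.28. Tcf3, an E protein gene, did not pass, at 0.03.

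Genes of at least 20 CPM in 1 population were also ranked by the size of the difference. Cmah, the hydroxylase that makes N-glycolylneuraminic acid, was at 21.3, 28.7, 19.8 and 22.1 CPM against 1.11, 2.05, 0.927 and 2.21 CPM (log2 fold change 3.92 ± 0.15, adjusted p = 1.24e-07). Arpp21, an RNA-binding phosphoprotein known from brain and immature thymocytes, was at 24.3, 34.7, 36.7 and 46.9 CPM against 1.40, 2.71, 1.85 and 5.81 CPM (3.70 ± 0.16, adjusted p = 1.65e-07). Cmah lies at chr13:24327404-24477377 and Arpp21 at chr9:112065091-112235938. In both genes the lowest Dntt+ Il7r- level lay above the highest Dntt- Flt3+ level. Next by size came Cox6a2, a muscle-type cytochrome c oxidase subunit (2.63), Lck, the T cell Src-family kinase (2.41), Sstr2, a somatostatin receptor (2.37), Mn1, a transcriptional coregulator (2.26), Wfdc18 (2.19), Ddx4, a germ cell RNA helicase (2.16), Tbxa2r, the thromboxane receptor (2.13), and Cd33, a sialic acid-binding lectin (2.08). Cd33 was at 18.7, 25.3, 15.8 and 36.2 CPM against 3.20, 4.47, 4.23 and 11.5 CPM.

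The sequences 5′ of the start sites of Dntt, which chose the cells, and of Notch1 and Cd33, which were higher in them, are shown as examples. Each has 1 start site listed by RefSeq, as have Sstr2, Ddx4 and Wfdc18 among the higher genes named by size, whose windows were searched too. Each run holds the 250 bases before the start on GRCm38.p6, read 5′ to 3′ on the gene's strand. Capitals mark the letters GGGAA read on either strand, the core of the motif that Ikaros family factors bind. The window of Dntt is chr19:41029025-41029274 on the plus strand, that of Notch1 is chr2:26503823-26504072 on the minus strand, and that of Cd33 is chr7:43533172-43533421 on the minus strand. The Notch1 window lies inside the gene span given above from GENCODE, so RefSeq and GENCODE place the start of this gene differently.
Dntt: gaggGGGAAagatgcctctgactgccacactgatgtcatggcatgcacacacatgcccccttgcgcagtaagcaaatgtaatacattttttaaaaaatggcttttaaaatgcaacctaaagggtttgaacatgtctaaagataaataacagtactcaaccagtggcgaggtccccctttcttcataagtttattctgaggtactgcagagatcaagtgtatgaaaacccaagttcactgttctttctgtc
Notch1: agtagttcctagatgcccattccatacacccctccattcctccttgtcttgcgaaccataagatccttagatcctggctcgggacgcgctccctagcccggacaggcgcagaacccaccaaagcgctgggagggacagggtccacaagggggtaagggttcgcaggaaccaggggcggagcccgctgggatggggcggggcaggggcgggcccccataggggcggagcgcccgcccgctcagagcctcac
Cd33: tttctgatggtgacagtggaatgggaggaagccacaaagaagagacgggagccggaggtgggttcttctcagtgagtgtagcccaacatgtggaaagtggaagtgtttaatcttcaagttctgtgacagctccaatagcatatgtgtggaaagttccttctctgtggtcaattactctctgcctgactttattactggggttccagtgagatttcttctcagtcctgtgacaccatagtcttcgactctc
GGGAA was found once, 246 bases before the start, in the Dntt window and 0 times in those of Notch1 and Cd33. The windows of Sstr2 and Ddx4 also held 1 match each, at positions -36 and -134 from the start, and that of Wfdc18 held 0. Neither strand of these 6 windows held CAGGTG, an E-box bound by E proteins (0 matches), so the motifs did not overlap. Of 32851 RefSeq windows of this length, 56.2% held GGGAA and 17.2% held CAGGTG, so a match is common and describes letters only; no binding was measured here.

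Transcription factors of lymphoid and progenitor cells went both ways. Of 26 tested, 10 were higher and 6 lower. Tcf4, an E protein, was higher by a log2 fold change of 0.85, Mef2c, which supports lymphoid over myeloid fate, by 0.76, Bcl11a by 0.70, Foxp1 by 0.49 and Ikzf1, which encodes Ikaros, by 0.51. Id2 and Id1, which block E proteins, were lower at -1.48 and -1.50, and so were Irf8 and Spi1, both with myeloid roles, at -0.48 and -0.21. Tcf3, Runx1, Erg and Lmo2 did not pass, at 0.03, 0.04, 0.18 and 0.08.

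Myeloid and antigen-presentation genes were lower in Dntt+ Il7r- cells than in Dntt- Flt3+ cells. Of 15 granulocyte-monocyte genes, 13 were lower and 0 higher (median log2 fold change -0.71). When cells of the erythroid and Elane rules were left out of both populations, 12 were lower and 0 higher (median -0.59). The log2 fold change of Elane was -1.08 with all cells and -0.56 without those cells. Mpo, the myeloperoxidase of primary granules, was at 2295, 1045, 1128 and 500 CPM against 4139, 2954, 2831 and 935 CPM (-1.18 ± 0.10, adjusted p = 1.3e-05). It was lower within each library, although control 1 among the Dntt+ Il7r- cells exceeded Yoda1 2 among the Dntt- Flt3+ cells. Ctsg, a granule protease, differed by -1.31, Prtn3 by -1.17 and Ly6c2 by -1.82, while Csf3r and Gfi1 did not pass at -0.08 and -0.22. Mpo still had a UMI in 83.1%, 70.0%, 71.8% and 46.0% of Dntt+ Il7r- cells after thinning, and Mpo and Satb1 were found in the same cell in 40.5%, 41.5%, 30.7% and 24.4%. The product of the shares of the 2 genes, which is the value under independence, was 40.3%, 41.5%, 31.0% and 24.9%.

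Of 7 MHC class II genes, 6 were lower and 0 higher. H2-Aa, a class II chain, was at 43.6, 61.4, 19.5 and 37.8 CPM against 210, 317, 32.5 and 275 CPM (-2.20 ± 0.23, adjusted p = 6.71e-05). Yoda1 1 had the lowest value in both populations, and its Dntt- Flt3+ level lay below the Dntt+ Il7r- levels of 3 libraries. Cd74, the invariant chain, differed by -2.07, and H2-Eb1 by -2.25. Genes of conventional dendritic cells were lower too, with log2 fold changes of -3.48 for Clec9a, -2.72 for Xcr1 and -2.66 for Batf3, and with 5 of 8 dendritic genes lower and 0 higher. Clec9a, Xcr1 and Batf3 were not among the genes ranked by size, which needed at least 20 CPM in 1 population and 1 direction in every library. Siglech, a gate gene of plasmacytoid dendritic cells, was at 0 by rule, and Spib and Klk1 were at 0 UMIs in the members of all libraries.

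The remaining named genes that were lower came from basophils and monocytes as well. Prss34, a basophil protease, ranked first among genes of at least 20 CPM at -3.08, but its levels of 11.9, 6.76, 3.16 and 50.5 CPM against 85.1, 154, 3.48 and 364 CPM were nearly equal in Yoda1 1. Mcpt8, another basophil protease, differed by -2.08, Ccr2, a monocyte chemokine receptor, by -2.10, F13a1, a coagulation factor chain of monocytes and megakaryocytes, by -2.13, and Plbd1, Lgals3, Naaa and Aif1 by -2.80, -2.27, -2.12 and -2.11. Of 9 mast cell, basophil and eosinophil genes, 7 were lower and 0 higher.

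Of 15 megakaryocyte-erythroid genes, 13 were lower and 0 higher in Dntt+ Il7r- cells. Pf4, platelet factor 4, differed by a log2 fold change of -0.93, Apoe by -0.86 and Itga2b by -0.85. The count was 7 of 15 without control 2 or without Yoda1 1, and 9 of 15 without cells of the erythroid and Elane rules. The summed level of these 15 genes was 1571, 812, 885 and 632 CPM in Dntt+ Il7r- cells and 1558, 1332, 1380 and 1109 CPM in Dntt- Flt3+ cells, so in control 1 the sums were nearly equal.

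Stem cell genes went both ways: of 13 tested, 2 were higher and 4 lower (median log2 fold change -0.28). The counts were 1 higher and 6 lower without cells of the erythroid and Elane rules (median -0.47). They were also 1 higher and 6 lower within cells of 5000 to 20000 UMIs (median -0.38). Hoxa9 was higher by 0.67, and Esam, Fgd5 and Pdzk1ip1 were lower at -1.42, -1.19 and -0.79. The count of lower genes was 2 without control 2 or Yoda1 2 and 1 without Yoda1 1, and that of higher genes was 1 without control 1, control 2 or Yoda1 1. Hlf, a factor of stem and multipotent cells, was at 57.0, 83.8, 57.3 and 149 CPM against 57.3, 79.7, 57.3 and 287 CPM and did not pass the test (-0.28 ± 0.13, adjusted p = 0.153). Its levels in the 2 populations were close in 3 libraries and lower in the members of Yoda1 2. Hlf passed edgeR's test as lower without cells of the erythroid and Elane rules (-0.52, adjusted p = 0.00302). It also passed as lower within cells of 5000 to 20000 UMIs (-0.45, adjusted p = 0.00917).

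Interferon response genes were higher in 15 of 20 and lower in 1, Ly6e. Ifit3 was at 6.83, 12.6, 61.7 and 3.98 CPM against 3.26, 3.81, 25.3 and 3.84 CPM (1.15 ± 0.16, adjusted p = 0.000536), with the highest level of both populations in Yoda1 1. Ly6a, the Sca-1 gene by which LSK cells are sorted, was at 267, 231, 513 and 109 CPM against 127, 90.7, 259 and 116 CPM (0.81). The summed interferon list was 2945, 2746, 5762 and 1672 CPM in Dntt+ Il7r- cells, and the count called was 7 of 20 without Yoda1 1 and 10 of 20 without control 2.

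Further lists held smaller counts. Of 7 Gimap genes, GTPases of lymphocyte survival, 4 were higher (Gimap7 by 1.56, Gimap6 by 1.06) and 0 lower. Of 11 Hoxa and Hoxb genes, 6 were higher, all from the Hoxa cluster, and 0 lower, a count that was 2 without control 1, control 2 or Yoda1 1. Of 15 immediate early genes, 8 were higher, among them Zfp36 (0.76) and Klf2 (0.64), and Klf4 was lower (-1.50); 4 were higher without control 1, control 2 or Yoda1 1. Of 16 S phase genes, 3 were lower (Rrm2 -0.39, Tyms -0.26, Cdc6 -0.24), and of 16 G2/M genes 0 differed, with Mki67 at -0.03; without Yoda1 2 these counts were 10 and 9 lower, and the S phase count was 1 without control 1 and 0 without control 2 or Yoda1 1. Piezo1, the target of Yoda1, was at 26.1, 17.5, 18.7 and 13.5 CPM against 26.1, 19.0, 18.9 and 16.0 CPM (-0.12 ± 0.08, adjusted p = 0.311). Nfatc2, Nfatc1 and Ppp3ca, of the calcineurin pathway, were higher by 0.83, 0.40 and 0.39 (3 of 16, and 1 of 16 without Yoda1 1), and 0 of 16 genes of the mechanosensing and calcium list were lower.

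**Figure D2:**
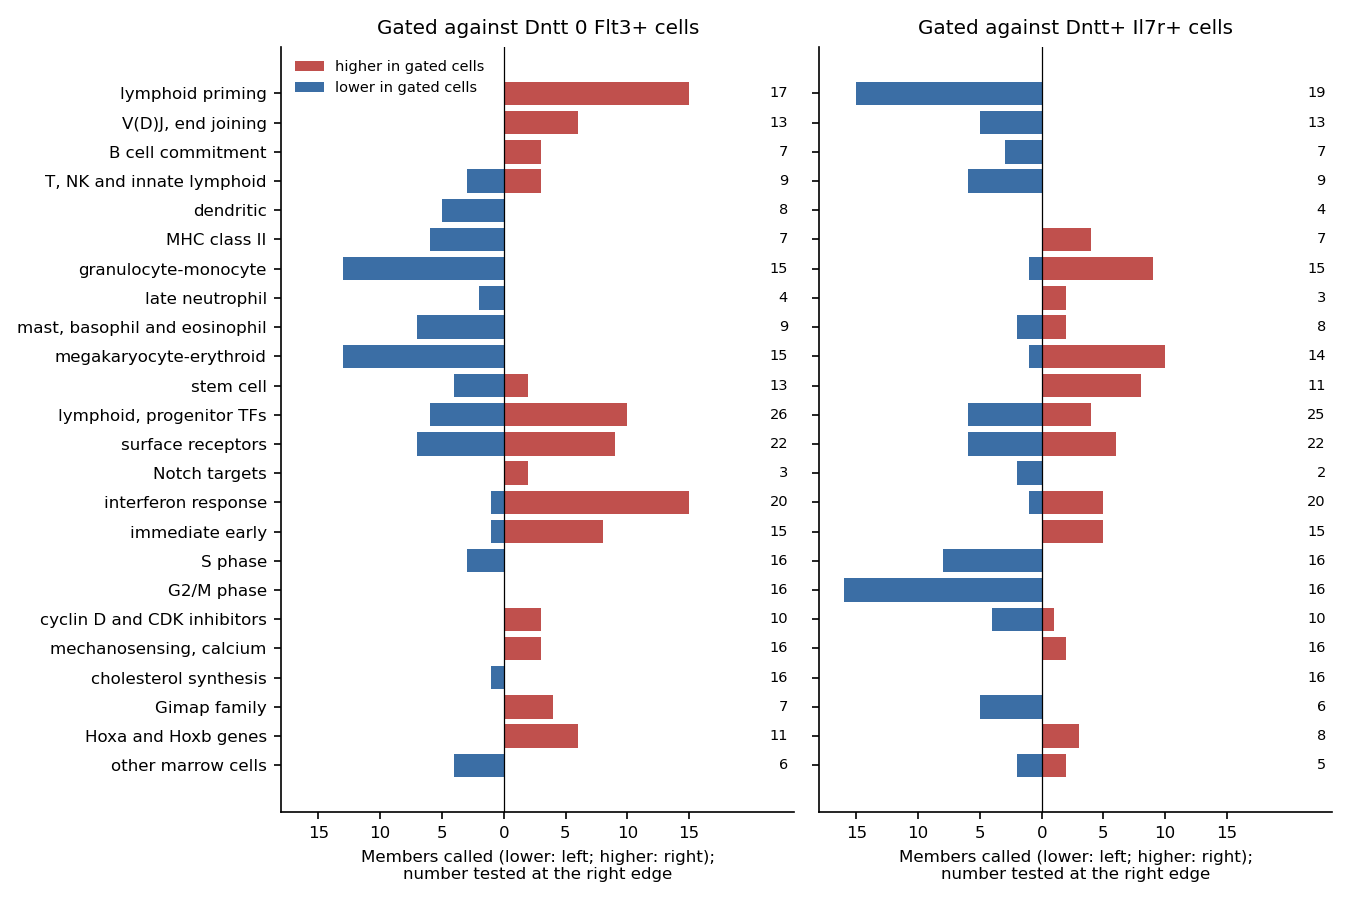
For 24 gene lists, the number of members called higher (red, right of 0) or lower (blue, left of 0) in Dntt+ Il7r- cells, against Dntt- Flt3+ cells (left panel) and Dntt+ Il7r+ cells (right panel), with the number tested at the right edge of each panel. Lymphoid priming is 15 of 17 higher on the left and 15 of 19 lower on the right, and G2/M is 0 of 16 on the left and 16 of 16 lower on the right.

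Against Dntt+ Il7r+ cells, the lymphoid priming genes lay on the other side. Of 19 tested lymphoid priming genes, 15 were lower in Dntt+ Il7r- cells and 0 higher (median log2 fold change -0.36, against 0.01 over all genes). Over 11999 genes tested, 613 (5.11%) were higher and 768 (6.4%) lower. The 2 comparisons use the same Dntt+ Il7r- cells, so their values are given side by side and are not independent. Dntt itself, a gate gene of both populations, was at 583, 953, 720 and 912 CPM in Dntt+ Il7r- cells and 1325, 2169, 1541 and 2290 CPM in Dntt+ Il7r+ cells.

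T cell receptor constant genes were lower in Dntt+ Il7r- cells. Trgc1, of the gamma chain, was at 0.820, 0.830, 1.28 and 2.14 CPM in Dntt+ Il7r- cells and at 24.2, 16.1, 17.3 and 36.1 CPM in Dntt+ Il7r+ cells (-4.16 ± 0.18, adjusted p = 7.19e-15). Trbc1, of the beta chain, was at 6.01, 9.13, 7.31 and 11.2 CPM against 69.1, 108, 44.4 and 106 CPM (-3.24 ± 0.12, adjusted p = 1.24e-16), and the 2 populations did not overlap in either gene. Trgc1 lies at chr13:19214103-19217024 and Trbc1 at chr6:41538218-41539881. Both have near-identical copies in the genome (Trgc2 and Trbc2 among them), and the sources used here do not say how reads were shared between copies. Of 9 T, NK and innate lymphoid genes, 6 were lower and 0 higher, including the T lineage factors Tcf7 (-2.75), Bcl11b (-2.69) and Gata3 (-1.38) and the surface protein Thy1 (-2.08).

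Rag2 was at 24.8, 28.6, 28.2 and 32.8 CPM in Dntt+ Il7r+ cells, more than its level in Dntt+ Il7r- cells in each library (-1.69 ± 0.13, adjusted p = 6.6e-10), and Rag1 was lower in Dntt+ Il7r- cells at -2.71. Ly6d differed by -3.41, Blnk by -1.79, Ccr7 by -1.05, Il12a by -0.54, Notch1 by -0.46, Satb1 by -0.36 and Flt3, which neither of these 2 rules used, by -0.20. Tmem108, a membrane protein named by its size of difference, was lower at -2.00. Ccr9, Bcl11a and Tcf3 did not pass, at -0.41, 0.02 and -0.12.

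Stem, myeloid and megakaryocyte genes were higher in Dntt+ Il7r- cells than in Dntt+ Il7r+ cells. Hlf, at 57.0, 83.8, 57.3 and 149 CPM, compared with 28.9, 29.96, 34.6 and 52.4 CPM (1.26 ± 0.09, adjusted p = 2.83e-10). The lowest Dntt+ Il7r- level was above the highest Dntt+ Il7r+ level. Of 11 stem cell genes, 8 were higher and 0 lower, including Esam (1.20), Pdzk1ip1 (0.88), Ifitm1 (0.84) and Angpt1 (0.65), a count that was 5 of 11 without control 2, 5 of 10 without Yoda1 2 and 4 of 11 with DESeq2. Of 14 megakaryocyte-erythroid genes, 10 were higher, led by Vwf (2.07) and Pf4 (1.87), and 1, the haemoglobin gene Hbb-bs, was lower, which rested on 188 CPM in the Dntt+ Il7r+ cells of Yoda1 2. Vwf was not among the genes ranked by size, which needed at least 20 CPM in 1 population and 1 direction in every library. Without cells of the erythroid and Elane rules, 8 of 13 megakaryocyte-erythroid genes were higher and 0 lower. Of 15 granulocyte-monocyte genes, 9 were higher, such as Csf3r (0.76), Prtn3 (0.73) and Mpo (0.58), and 1, Ly86, was lower. Without cells of the erythroid and Elane rules, 8 of these 15 were higher and 2 lower. Hk3, a hexokinase of myeloid cells, and the chemokine gene Ccl9 were higher by 1.26 and 1.27. Kit, the stem cell factor receptor, was higher by 0.70.

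Cell cycle genes were lower in Dntt+ Il7r- cells. All 16 of 16 G2/M genes were lower (median log2 fold change -0.62), in each of the 4 fits that left out 1 library as well. Mki67, which marks dividing cells, stood at 217, 198, 276 and 233 CPM against 363, 325, 389 and 404 CPM, without overlap (-0.68 ± 0.05, adjusted p = 3.45e-11). Cenpf, a kinetochore protein, differed by -0.84, Ube2c by -0.74 and Top2a by -0.63. Of 16 S phase genes, 8 were lower and 0 higher, with Rrm2 at -0.42, and 5 of 16 were lower without control 2 or Yoda1 2. Cdkn1a, a CDK inhibitor, was also lower (-0.78). Ccnd1, cyclin D1, was higher by 0.76. Dntt+ Il7r+ cells had the higher median UMI count in each library, and within cells of 5000 to 20000 UMIs the G2/M count was again 16 of 16 lower.

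**Figure D3:**
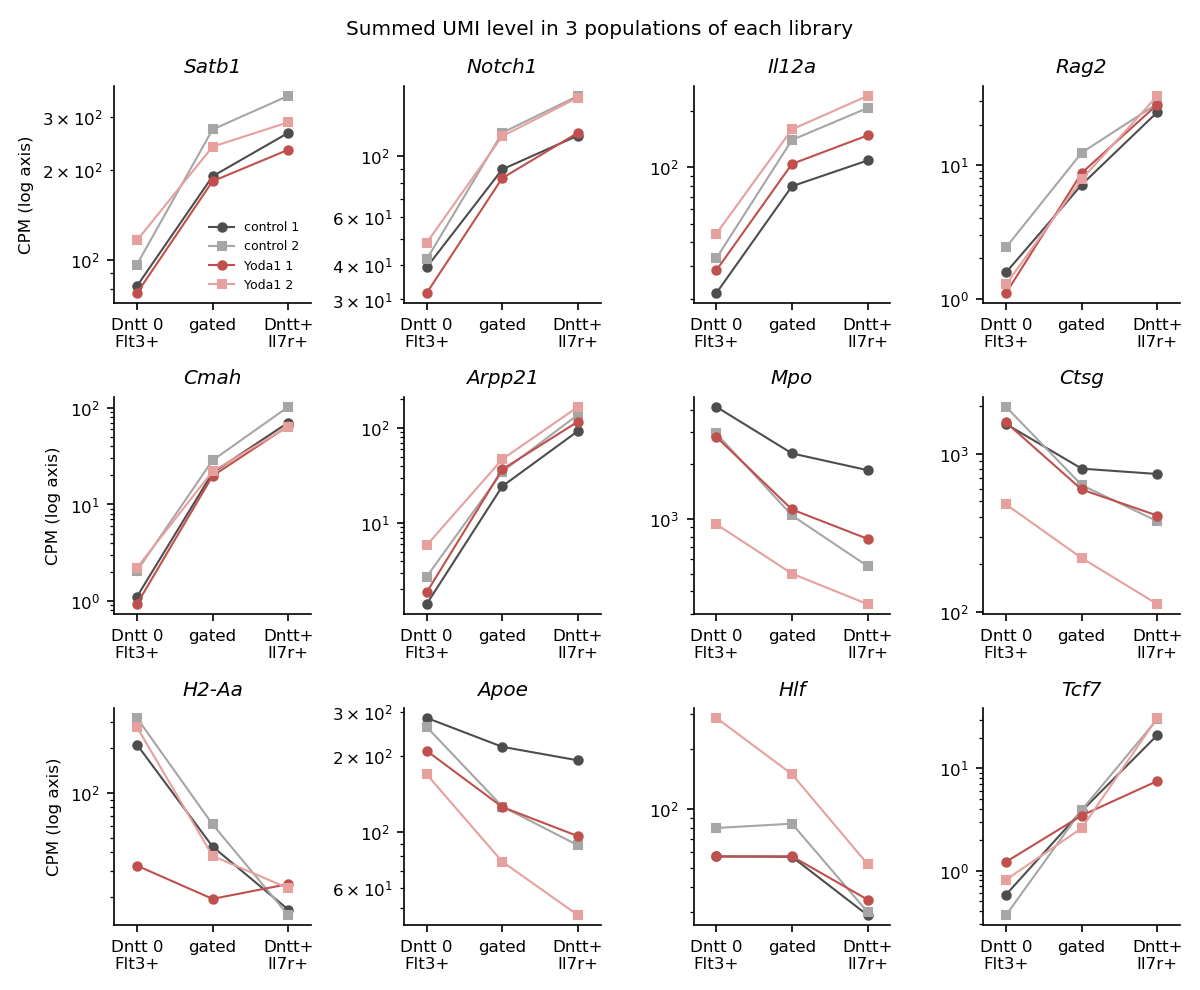
CPM (log axis) of 12 genes in Dntt- Flt3+ cells, Dntt+ Il7r- cells (gated) and Dntt+ Il7r+ cells of each library, joined by library. Notch1, Satb1, Il12a and Rag2 step up from left to right in all 4 libraries, and Mpo and Ctsg step down.

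Within the members, levels differed by the number of Dntt UMIs of a cell. Cells just outside the rule, with 1 Dntt UMI, had Flt3 at 71.8, 79.5, 51.4 and 138 CPM, and cells just inside, with 2, had Flt3 at 137, 181, 121 and 206 CPM. Satb1 was at 86.3, 94.9, 71.1 and 125 CPM with 1 Dntt UMI and at 153, 203, 122 and 191 CPM with 2. These values are given with no test, since Dntt counts chose the cells. The bins are raw UMI counts, so the depth of a cell enters them. Cells with 1 Dntt UMI had a median of 12210.5, 10605, 11850 and 7437 UMIs. The members of all bins together had 9266, 7421.5, 9350 and 7456, and the depth of the single bins inside the rule is not given here. The part of depth, or of cells of the erythroid and Elane rules, in these steps was not tested.

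Notch1 was at 72.3, 76.6, 49.3 and 80.0 CPM in cells with 2 Dntt UMIs and at 109, 147, 111 and 145 CPM in cells with 10 or more. Il12a went from 47.0, 76.0, 59.3 and 98.7 CPM to 120, 198, 140 and 193 CPM, and Rag2 from 3.01, 4.36, 4.07 and 2.34 CPM to 14.1, 17.5, 17.6 and 15.1 CPM. Mpo took the other direction, from 2706, 1416, 1510.0 and 770.0 CPM to 2101, 900, 847 and 377 CPM. Hlf was at 78.3, 108, 62.0 and 226 CPM with 2 Dntt UMIs and at 38.0, 52.9, 27.7 and 87.4 CPM with 10 or more, the lowest of its bins inside the rule in all libraries. The bins of 2 and of 10 or more held 126 and 149 cells in control 1, 154 and 299 in control 2, 186 and 252 in Yoda1 1, and 289 and 405 in Yoda1 2.

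**Figure D4:**
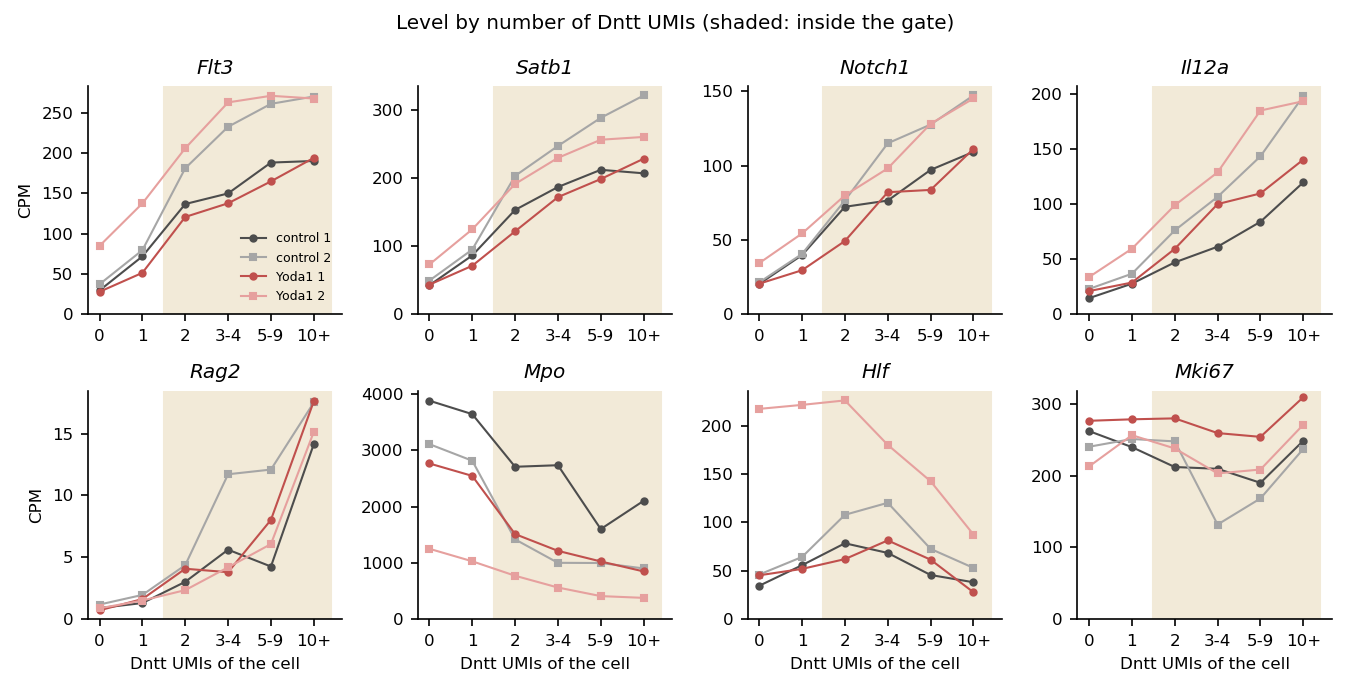
CPM of 8 genes in cells grouped by their number of Dntt UMIs (0, 1, 2, 3-4, 5-9, 10 or more), with the same 6 genes at 0, by library; shading marks the bins inside the rule. Notch1, Il12a and Rag2 end at their highest values in all libraries, and Hlf falls from the bin of 2 to the bin of 10 or more, as from 226 to 87.4 CPM in Yoda1 2.

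Yoda1 against control gave no gene past the threshold in Dntt+ Il7r- cells. Of 13030 genes tested, 0 were higher (0%) and 0 lower (0%) by edgeR's quasi-likelihood test, the smallest adjusted p being 0.9997, while 151 had an unadjusted p under 0.05. The same sums gave 0 genes with limma-voom and 1 gene, Fos, with DESeq2. Leaving out Yoda1 1 gave 59 genes and leaving out Yoda1 2 gave 86, while leaving out either control gave 0, and in these fits the single library of a group is assumed to vary like the other group. Both Yoda1 libraries lay above both controls in 1187 genes (9.11%) and below both in 1835 genes (14.1%), and counts of genes in lists are read beside these shares.

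Fos, a subunit of the AP-1 factor and an immediate early gene at chr12:85473890-85477273, had the smallest unadjusted p among genes of at least 10 CPM whose groups did not overlap. It was at 65.3 and 91.1 CPM in the controls and 22.4 and 30.1 CPM with Yoda1, without overlap (log2 fold change -1.55 ± 0.21, unadjusted p = 0.000198, adjusted p = 0.9997). DESeq2 called it (adjusted p = 2.28e-05), as did edgeR when Yoda1 1 (adjusted p = 0.0273) or Yoda1 2 (adjusted p = 0.000429) was left out, and its log2 fold change ranged from -1.75 to -1.32 over the 4 fits that left out 1 library. In Dntt- Flt3+ cells Fos was at 34.7, 48.8, 16.2 and 33.8 CPM, and the difference of the effect between the populations was -0.75 ± 0.17 (adjusted p = 0.994). Of 15 immediate early genes, 7 were below both controls in both Yoda1 libraries, including Nr4a1 (2.87, 3.79, 1.19 and 1.45 CPM), Klf4 (3.83, 3.68, 1.78 and 1.30 CPM) and Fosb (14.2, 17.0, 7.02 and 11.01 CPM), and 0 were above. Egr1 and Jun overlapped between the groups, with Egr1 at 17.4, 37.1, 4.84 and 39.9 CPM.

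After Fos, the named genes with lower values were Hdc, which makes histamine (24.1, 17.2, 8.004 and 6.96 CPM, -1.44 ± 0.25), the proton channel gene Hvcn1 (13.7, 18.5, 8.79 and 8.26 CPM), the mast cell protease Cpa3 (45.8, 33.2, 23.02 and 21.7 CPM) and Csgalnact2 (36.5, 32.4, 22.5 and 22.8 CPM), with unadjusted p of 0.000958 to 0.0108. Those with higher values were Tmem273 (8.06, 7.71, 11.9 and 16.7 CPM, 0.88 ± 0.23), Idi1, an isoprenoid enzyme (11.9, 11.9, 16.4 and 20.3 CPM), Ccnd1 (37.6, 30.4, 55.7 and 47.6 CPM, 0.63 ± 0.19), Myl10 (22.96, 40.8, 50.0 and 63.5 CPM) and the replication kinase gene Cdc7 (15.6, 18.6, 25.4 and 24.4 CPM), with unadjusted p of 0.00815 to 0.0176. All were named because their groups did not overlap, and the adjusted p was 0.9997 for each.

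**Figure D5:**
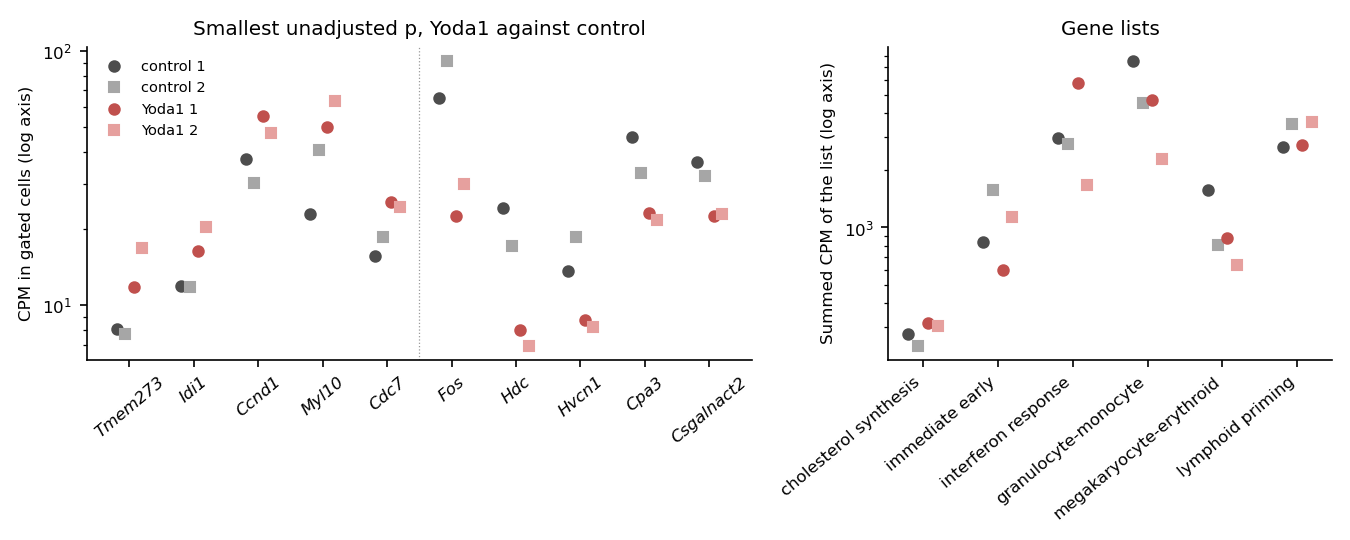
Left, CPM (log axis) in Dntt+ Il7r- cells of each library for the 10 genes with the smallest unadjusted p among those whose groups do not overlap, 5 per direction. Right, summed CPM (log axis) of 6 gene lists; the interferon list is highest in Yoda1 1 (5762 CPM) and lowest in Yoda1 2 (1672 CPM).

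Of 16 cholesterol synthesis genes, 8 were above both controls in both Yoda1 libraries and 0 below, with 14 of 16 fold changes positive (median log2 fold change 0.31, against 0.00 over all genes). Cyp51 was at 13.4, 12.4, 18.8 and 18.7 CPM and Msmo1 at 15.9, 16.1, 21.6 and 21.1 CPM, both enzymes of the sterol pathway. Sqle overlapped between the groups, and the list's summed level was 275 and 239 CPM in controls and 313 and 302 CPM with Yoda1. None of the 16 passed the test.

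Granulocyte-monocyte genes were below both controls in 6 of 15 and megakaryocyte-erythroid genes in 5 of 15. Elane was at 1297, 616, 503 and 251 CPM (-1.31 ± 0.46, unadjusted p = 0.0259) and Cebpe, a granulocyte factor, at 25.2, 17.5, 11.9 and 6.42 CPM. Gfi1b, an erythroid and megakaryocyte factor, was at 26.0, 18.0, 13.4 and 9.71 CPM. Control 1 was highest and Yoda1 2 lowest in these genes, and also in the percentages of members that met the erythroid and Elane rules. The middle libraries differed in order. The 3 genes were higher in control 2 than in Yoda1 1. The percentages were lower in control 2 (0.991% erythroid, 2.53% Elane) than in Yoda1 1 (1.62% and 3.02%). Without those cells the log2 fold change of Elane was -1.17, that of Cebpe -1.29 (-1.20 with them) and that of Gfi1b -0.55 (-0.90 with them), and none of the 3 passed edgeR's test with or without them. With all cells and without Yoda1 1, edgeR called Elane (-1.97, adjusted p = 0.0267) and Cebpe (-1.76, adjusted p = 0.0314).

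Interferon genes followed 1 library. Isg15 was at 97.7, 74.9, 466 and 42.8 CPM, and Yoda1 2 lay below both controls while Yoda1 1 lay above them (1.62 ± 0.93, unadjusted p = 0.129). Without Yoda1 1 the log2 fold change was -1.04, and that of Ifit3 went from 1.80 to -1.32. All 20 of 20 interferon fold changes were positive with both libraries, yet 2 of 20 genes separated the groups.

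The lymphoid priming genes overlapped between treatments. Of 18 tested lymphoid priming genes, 0 lay above and 0 below both controls in both Yoda1 libraries, with a median log2 fold change of 0.00. Satb1 had a log2 fold change of -0.11 ± 0.21, Notch1 of -0.05 ± 0.21, Il12a of 0.28 ± 0.29 and Rag2 of -0.22 ± 0.31. Piezo1 overlapped too, at -0.42 ± 0.28. The share of Dntt+ Il7r- cells with an Mki67 UMI after thinning was 26.4%, 20.1%, 30.7% and 23.9%, a mean of 23.2% in controls and 27.3% with Yoda1 (difference 4.07 percentage points, exact two-sided permutation p = 0.667); before thinning the means were 39.3% and 41.7%.

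The Yoda1 effect was also compared between Dntt+ Il7r- and Dntt- Flt3+ cells. Of 14031 genes tested, 2 (0.0143%) had a larger effect in Dntt+ Il7r- cells and 0 (0%) a smaller one. These were the immunoglobulin genes Igkc and Jchain, and their counts came almost wholly from 1 cell of Yoda1 2 and 1 cell of control 2. When cells with 1000 or more Igkc UMIs were left out, 0 genes passed edgeR's test, with 605 at an unadjusted p under 0.05.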

How the data were processed

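The deposited matrices held raw UMI counts per gene and cell barcode for 4 libraries, per the file headers and the whole-number values. The submitters' processing notes name Cell Ranger 7.1.0, Seurat 4.3.0 and the mouse genome build GRCm38 (mm10); the sources used here do not name the annotation release or say how introns were handled. The labels name both 10x Genomics and a microwell chip system, so it is uncertain which captured the cells. Of 55357 gene IDs, 52081 (94.1%) matched GENCODE M21. No per-sample column was left unused (0). The members and gene lists were chosen with earlier results of these data known.

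Cells were filtered and chosen by the rule in the text, counts were summed per library and population, and the sums were tested with edgeR 4.0.16 (filterByExpr, TMM, quasi-likelihood test, Benjamini-Hochberg adjustment over all genes tested). Population comparisons had the library as a block and left out the genes that chose the cells; SE is the size of the log2 fold change divided by the square root of F. Detection was compared after thinning to 3000 UMIs, leaving out 2, 9, 2 and 35 shallower members. Gene positions are GENCODE M21 on GRCm38, and promoter windows are from RefSeq. The scripts were tested on simulated data. There the test of Yoda1 against control recovered 32 of 100 genes changed 2-fold and 92 of 100 changed 4-fold. Each population comparison recovered 88 of 100 genes changed 2-fold. A Yoda1 effect of 2-fold would thus often go uncalled with these libraries.

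Named genes were, for populations, up to 10 per direction (5 against Dntt+ Il7r+ cells) with the largest log2 fold change among genes past adjusted p of 0.05, at least 20 CPM in 1 population and 1 direction in every library; for treatment, where none passed, the 5 per direction with the smallest unadjusted p among genes averaging 10 CPM or more in which the libraries of the 2 treatments did not overlap; and members of the 24 lists. Alternatives tried were RLE normalization, DESeq2 1.42.0, voom weights in limma 3.58.1, no low-count filter, a stricter cell filter, Dntt of at least 1 or 3 UMIs, cells of 5000 to 20000 UMIs, doublets removed, each library left out, and blocks added or dropped. Leaving out cells with 1000 or more Igkc UMIs, and cells of the Elane or erythroid rules, was added after seeing the data. The automatic doublet call of Scrublet marked 575, 1, 0 and 0 cells and had not worked, so doublets were kept; removing the cells with the highest scores (465, 489, 666 and 761 cells) was an alternative. Some genes are not reported here.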

Additional observations from a re-analysis of the deposited data

Results flagged for a closer look

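The immunoglobulin genes Jchain and Igkc were the 2 genes whose Yoda1 effect differed between Dntt+ Il7r- and Dntt- Flt3+ cells by a test of the difference itself in edgeR, at log2 10.16 for Jchain (adjusted p = 0.00644) and 11.86 for Igkc (adjusted p = 0.0327). Igkc, the antibody kappa light chain constant gene, was at 0.137, 5.81, 2.57 and 1557 CPM in Dntt+ Il7r- cells and at 0.116, 260.0, 2.90 and 7.21 CPM in Dntt- Flt3+ cells. One Dntt+ Il7r- cell of Yoda1 2 held 20262 Igkc UMIs of its 45357, with 219 of Jchain, the joining chain of secreted antibody, 2801 of Ighm and 2 of Dntt. A Dntt- Flt3+ cell of control 2 held 3491 Igkc UMIs of its 22194, with 320 of Jchain and 2355 of Ighm. Other cells of these populations held at most 2 Igkc UMIs. Without these cells, 0 genes passed the test of the difference. The same single cell carried the log2 fold change of 7.06 for Igkc between Dntt+ Il7r- and Dntt+ Il7r+ cells, which was 0.32 (adjusted p = 0.541) without it.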

How the results depend on the processing

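The count of genes called for Yoda1 against control in Dntt+ Il7r- cells (0) was 1 with DESeq2 and 87 with no low-count filter, and ranged from 0 to 86 with 1 library left out. The replicate numbers are not said to pair libraries; with a replicate block the count was 13 (Fos, Hdc, Mpo, Elane, Klf1, Car1, Igkc and 6 others), and the deviations of same-numbered libraries had a correlation of 0.354 across 13031 genes. The difference of the share of Dntt+ Il7r- cells was 2.62 and 3.10 points within the replicate numbers. It lay between 2.17 and 3.64 points over the gate and cell-filter settings, each with every library. That range includes no setting with a library left out. The shares were 7.55% and 11.6% in controls and 10.2% and 14.7% with Yoda1, so the difference depends on which libraries are kept. Against Dntt- Flt3+ cells (2852 genes), DESeq2 gave 1655, no library block 190, and leaving out a library 1244 to 4187. Against Dntt+ Il7r+ cells (1381 genes), the values were 552, 88 and 866 to 1323. The difference of the Yoda1 effect (2 genes) was 71 with no filter, 0 within 5000 to 20000 UMIs, 0 without cells of 1000 or more Igkc UMIs, and 8 to 360 with 1 library left out; the Igkc value was -0.28 within that UMI range and -0.49 without those cells, and Jchain without control 2 had no finite estimate. Signs of some Yoda1 values turned when a library was left out: Isg15 ranged from -1.04 to 2.50, Ifit3 from -1.32 to 2.73, Satb1 from -0.33 to 0.14 and Hlf from -0.22 to 1.06, and without Yoda1 2 Igkc went from 7.96 to -0.16 and Ighm from 0.30 to -0.013. With 2 libraries a group, p for shares cannot go below 0.3333, and depth differs between libraries and populations.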

Other observations

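Surface receptors differed between Dntt+ Il7r- and Dntt- Flt3+ cells: of 22 tested, among them Notch1, Ccr9, Ccr7 and Cd27 of the lymphoid list, 9 were higher and 7 lower, the latter 4 without control 1 or Yoda1 1. Tnfrsf13c, the receptor for the B cell survival factor BAFF, was higher by a log2 fold change of 1.09, Cd244a, a SLAM family receptor, by 0.68, and Il2rg, the common gamma chain of interleukin receptors, by 0.50. S1pr1, a sphingosine phosphate receptor, was lower at -1.06, as was Csf2rb, the shared chain of the interleukin 3 and GM-CSF receptors, at -0.52. Cxcr4, Il6st and Cd48 did not pass, at 0.16, -0.02 and -0.01.

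Of 10 D cyclins and CDK inhibitors, 3 were higher and 0 lower against Dntt- Flt3+ cells: Cdkn1a (0.44), Cdkn1b (0.43) and Ccnd2 (0.39). Against Dntt+ Il7r+ cells, 1 of 10 was higher, Ccnd1 (0.76), and 4 were lower, a count that was 1 without control 2, without Yoda1 2 or with DESeq2.

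Within thinned Dntt+ Il7r- cells, Mki67 and Mpo had UMIs in the same cell in 22.0%, 15.8%, 23.2% and 12.6%, and Flt3 and Satb1 in 26.7%, 34.7%, 18.9% and 33.4% of cells in control 1, control 2, Yoda1 1 and Yoda1 2.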
